A study of Mus musculus with 4 samples.

Results

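The genes of the DNA damage checkpoint kinases and mediators were measured in bone marrow hematopoietic stem cells (HSC) and common lymphoid progenitors (CLP) of mice with and without G protein-coupled receptor kinase 6 (GRK6). The members were the 10 genes whose symbols are Atm, Atr, Chek1, Chek2, H2afx, Trp53bp1, Mdc1, Nbn, Mre11a and Rad50, out of 12417 genes with a row in at least 1 library. The rule picks them by symbol, but the list was drawn up with earlier results of these data known. The catalytic subunit of DNA-PK, Prkdc, which the study set beside Atm, was used for comparison.

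Each population was sequenced in 1 WT and 1 GRK6-/- library, 4 in all. HSC were sorted from the bone marrow of C57BL/6 mice as Lin-c-kit+sca-1+. The CLP gate, Lin-c-kit+sca-1+Il-7Ra+, added the interleukin 7 receptor to the same markers. The knockout allele lacks exons that all Grk6 splice forms share, and the labels name no treatment and no age for any group. Each library pooled 13 to 15 hand-picked cells of 3 to 4 mice, whose poly(dT)-primed cDNA was amplified by 20 and then 10 cycles of PCR. No group had a replicate, so a difference between 2 libraries compares those libraries and carries no p-value. A pair is described below by its values in FPKM (fragments per length of transcript, scaled to the mapped fragments of the library) and by the log2 ratio of FPKM + 1. A log2 ratio of at least 1 in either direction, a 2-fold difference on that scale, was counted as past the threshold.

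A double-strand break in DNA is first bound by the MRN complex, made of Mre11a, Rad50 and Nbn, which brings in and activates the kinase ATM. ATM and the related kinase DNA-PKcs phosphorylate the histone variant H2AX around the break, and MDC1 and 53BP1 (Trp53bp1) assemble on the marked chromatin. ATR is the sister kinase that answers to single-stranded DNA at stalled forks. ATM and ATR pass the signal to the effector kinases CHK2 (Chek2) and CHK1 (Chek1), which hold the cell cycle. In lymphoid progenitors the same machinery also attends the breaks made during V(D)J recombination. These proteins are regulated largely by phosphorylation, which mRNA levels do not show.

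Grk6 itself was 42.7 FPKM in WT HSC, 89.4 in the library labelled GRK6-/- HSC, 26.9 in WT CLP and 57.6 in the library labelled GRK6-/- CLP. The targeted gene was thus 2.09-fold and 2.14-fold higher under the knockout label, opposite to a loss of its RNA. A value over the whole gene does not show whether the deleted exons were read, so it does not check the genotype, and every direction below is one between libraries so labelled. Il7r, the receptor chain that defines the CLP gate, followed the sort labels. It had no row in WT HSC and was 1.08 FPKM in the library labelled GRK6-/- HSC, against 120 in WT CLP and 75.1 in the library labelled GRK6-/- CLP. Ly6a, which encodes the Sca-1 antigen of both gates, had no row of its own in any library. Depth, estimated from the steps between low FPKM values, was between 2780000 and 4370000 fragments per library. The paper gives sequenced reads per lineage, a larger number but another measure. The fragment counts and counting intervals below rest on the estimate.

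Promoter sequences are given for the 4 members with the largest differences between genotype labels and a row in both libraries, Mdc1 and Chek2 in HSC and Atm and Chek1 in CLP, so that the motifs described next can be read in place. Each runs 5′ to 3′ on the strand of its gene, from 250 bases before to 50 bases after the RefSeq start, in build GRCm38.p6. The table of promoters held 7 of the 10 members and no entry for H2afx, Nbn and Rad50. Capitals mark matches to an E2F-type motif (TTTCCCGC, TTTCGCGC, TTTGGCGC or TTTGCCGC) and to a CCAAT box (CCAAT), on either strand. The coordinates are chr17:35841248-35841547 (+) for Mdc1, chr5:110839733-110840032 (+) for Chek2, chr9:53536622-53536921 (-) for Atm and chr9:36726609-36726908 (-) for Chek1.
Mdc1: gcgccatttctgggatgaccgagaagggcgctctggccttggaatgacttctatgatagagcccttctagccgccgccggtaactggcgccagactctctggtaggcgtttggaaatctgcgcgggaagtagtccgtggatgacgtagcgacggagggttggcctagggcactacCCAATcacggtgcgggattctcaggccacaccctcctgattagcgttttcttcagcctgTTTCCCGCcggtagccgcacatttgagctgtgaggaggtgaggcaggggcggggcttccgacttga
Chek2: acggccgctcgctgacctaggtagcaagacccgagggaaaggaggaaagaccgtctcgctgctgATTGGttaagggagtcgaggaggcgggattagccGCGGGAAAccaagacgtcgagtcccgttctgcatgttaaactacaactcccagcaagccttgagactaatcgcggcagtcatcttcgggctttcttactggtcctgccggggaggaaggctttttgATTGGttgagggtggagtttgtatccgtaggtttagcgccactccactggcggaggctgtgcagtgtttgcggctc
Atm: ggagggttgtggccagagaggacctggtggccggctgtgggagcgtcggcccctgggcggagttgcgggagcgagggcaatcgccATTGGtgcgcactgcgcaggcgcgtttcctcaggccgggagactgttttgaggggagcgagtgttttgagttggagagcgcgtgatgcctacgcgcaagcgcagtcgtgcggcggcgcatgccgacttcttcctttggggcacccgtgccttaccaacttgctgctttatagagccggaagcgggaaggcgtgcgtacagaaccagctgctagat
Chek1: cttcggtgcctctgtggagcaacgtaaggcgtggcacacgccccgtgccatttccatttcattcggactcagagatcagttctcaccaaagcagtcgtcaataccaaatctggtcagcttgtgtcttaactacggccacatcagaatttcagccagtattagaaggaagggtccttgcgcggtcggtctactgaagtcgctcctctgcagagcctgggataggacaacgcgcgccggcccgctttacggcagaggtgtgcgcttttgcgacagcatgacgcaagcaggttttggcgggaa

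The E2F-type motif was found in 2 of the 7 member promoters, Chek2 and Mdc1, and in 2.26% of the 32851 promoters in the table. Only the 4 strings given above were searched, so other forms of an E2F site were not counted. The Chek1 window ends in gcgggaa, so a match to GCGGGAAA, the other strand of TTTCCCGC, could not be seen at that edge. E2F factors drive genes of S phase. In Mdc1 the match began 16 bases before the start and in Chek2 152 bases before it. A CCAAT box was found in 4 of the 7, Chek2, Mre11a, Atm and Mdc1, against 37.4% of all promoters, and Chek2 and Mre11a each held it at 2 places. The motifs were picked with the FPKM values known, no 8-letter match overlapped a CCAAT box in these windows, and a match is only a match of letters. The 7 windows were rich in CpG, with 20 to 28 CpG each against a median of 7 over all windows, and their GC content was 55.3% to 64.0% against a median of 52.7%.

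By position the members were spread over 6 chromosomes, but 5 of the 10 (Mre11a, Chek1, H2afx, Atm and Atr) lay on chromosome 9, which held 5.61% of the genes measured. The closest of these neighbours, Chek1 and H2afx, were 7.61 Mb apart, so they do not form a cluster. In mm9, with GENCODE M1 annotation, Atm occupies chr9:53247254-53344845 on the minus strand. Its start lies 307 bases from that of Npat, an activator of histone genes at the entry to S phase, which is read in the other direction (chr9:53345152-53382447). The GRCm38.p6 promoter windows of both genes share 125 bases. H2afx is a gene of a single exon in a transcript of 1357 bases, while the longest annotated transcripts of Atm, Trp53bp1, Atr and Mdc1 have 10006, 9621, 8074 and 7335 bases.

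In all, 39 of the 40 member values had a row. The exception was Nbn in WT CLP. Every member was given by 1 row in each file that listed it. The members spanned a wide range of levels (plot of FPKM by gene and library). H2afx was the highest in every library, from 96.5 to 242 FPKM, and lay above the 91st percentile of genes with a row in each. The other 9 together summed to 59.9 FPKM in WT HSC, 155 in the library labelled GRK6-/- HSC, 61.8 in WT CLP and 139 in the library labelled GRK6-/- CLP. The median member was 6.75, 12.1, 5.82 and 10.3 FPKM in the same order, beside 10.7, 9.25, 11.9 and 12.0 for all genes with a row. No member had its highest value in WT HSC, 5 had it in the library labelled GRK6-/- HSC, 2 in WT CLP and 3 in the library labelled GRK6-/- CLP. The lowest value fell in WT CLP for 5 members, Atm, Chek1, Chek2, Nbn and Mre11a. How often each library held the highest or lowest value over all genes was not counted. These counts are therefore not read as a trait of the members.

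**Figure D1:**
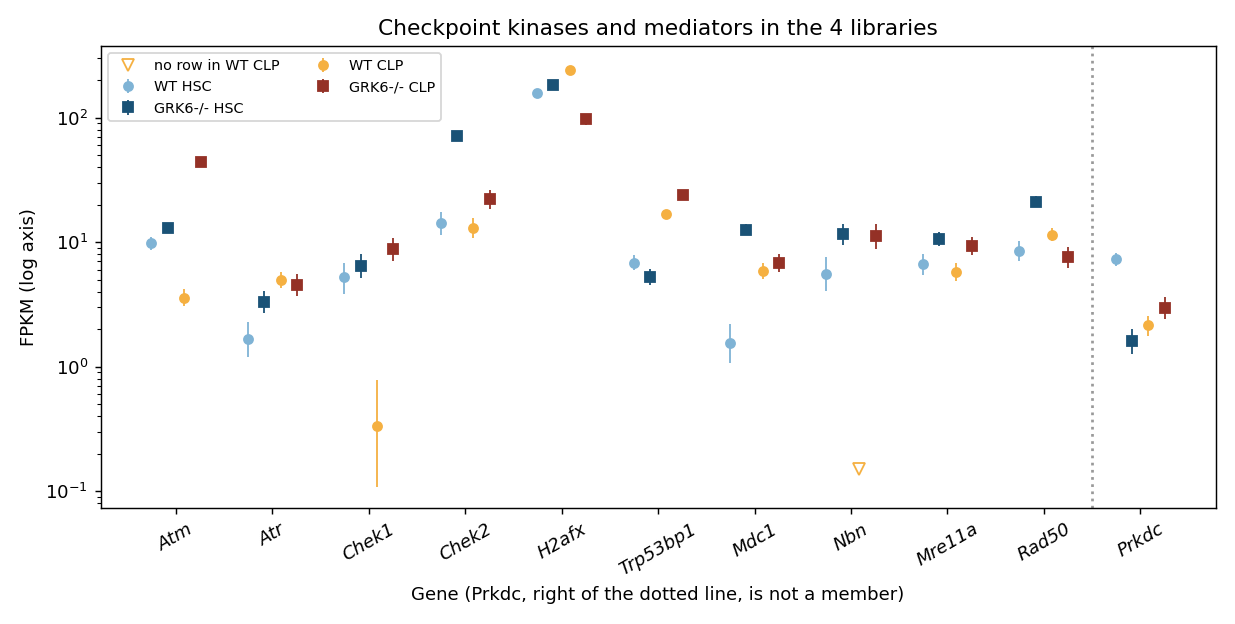
FPKM on a log axis for the 10 members and Prkdc, 1 point per library, with 95% counting intervals as bars. H2afx sits highest in every library, between 96.5 and 242 FPKM, Chek1 is at 0.335 in WT CLP, and the open triangle marks Nbn, which has no row there and is drawn below all values.

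Levels in these libraries went with transcript length. The median FPKM of genes whose longest transcript was under 2 kb was between 29.6 and 32.2 in the 4 libraries, and that of genes over 8 kb between 2.39 and 4.25. Each member was therefore also ranked among genes of its own length class (plot of ranks by library). On that scale Atm lay at the 78.6th percentile in WT HSC, 89.4th in the library labelled GRK6-/- HSC, 45.2nd in WT CLP and 95.5th in the library labelled GRK6-/- CLP. Trp53bp1 stood at the 69.0th, 72.6th, 87.4th and 88.4th. H2afx, first in raw FPKM, lay between the 77.9th and the 90.2nd among short genes. Chek1 remained under the median of its class in every library, from the 6.03rd to the 40.8th percentile.

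**Figure D2:**
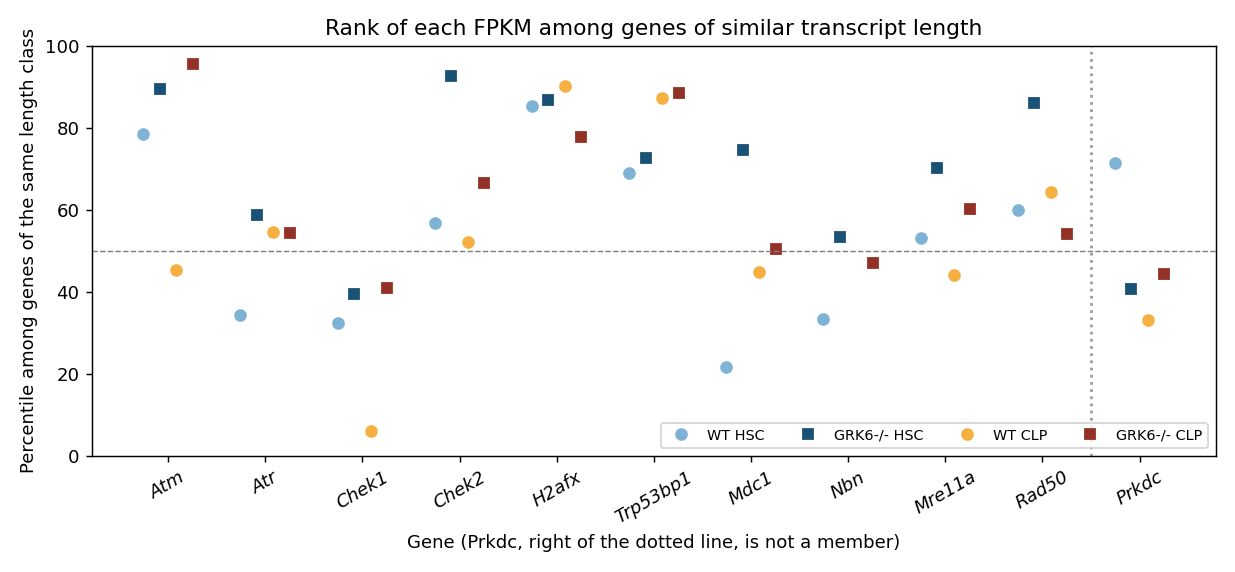
Percentile of each FPKM among genes with a row whose longest transcript is in the same length class (under 2, 2 to 4, 4 to 8 or over 8 kb), 1 point per library, with a dashed line at the median. Atm and Trp53bp1, low in raw FPKM beside H2afx, reach the 95.5th and 88.4th percentile, while Chek1 stays under the line in all 4 libraries.

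Between the HSC libraries, 9 of the 10 members were higher under the GRK6-/- label by any amount, against 51.8% of the 11624 genes compared. Of these, 3 passed the threshold upward (Mdc1, Chek2 and Rad50), beside 19.3% of all genes, and none passed it downward, beside 18.0%. In either direction this was 3 of 10 against 37.4%, so the count past the threshold was near that of all genes. The median log2 ratio of the members was 0.65 and that of all genes 0.05. Between the CLP libraries, 7 of 10 were higher by any amount, against 51.5% of 11191 genes. Atm, Chek1 and Nbn passed the threshold upward, beside 26.6% of genes, and H2afx downward, beside 23.4%. The total of 4 of 10 lay under the 50.0% of all genes. The median of the members was 0.55 and that of all genes 0.05. No member passed the threshold in both populations, which 5.66% of 10398 genes did upward in both, 4.43% downward in both and 10.8% upward in one and downward in the other. Atm, Chek1, Chek2, Mdc1, Nbn and Mre11a were higher by any amount under the GRK6-/- label in both, a pattern of 25.9% of those genes (plot of log2 ratios in HSC and CLP).

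Set by label over all 4 libraries, the values of 6 members did not overlap between genotypes. Atm, Chek1, Chek2, Mdc1, Nbn and Mre11a were each higher in both libraries labelled GRK6-/- than in either WT library, a pattern shown by 14.4% of the 12417 genes. No member was lower in both, which 13.1% of genes were. Grk6 itself was among the genes that were higher in both, and Prkdc overlapped. Set by population, Atr and Trp53bp1 were higher in both CLP libraries than in either HSC library (2 of 10, beside 14.2% of genes), and no member was lower in both (17.6% of genes). The 6 of 10 rest on 2 libraries a side and include Nbn with its absent row taken as 0.

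**Figure D3:**
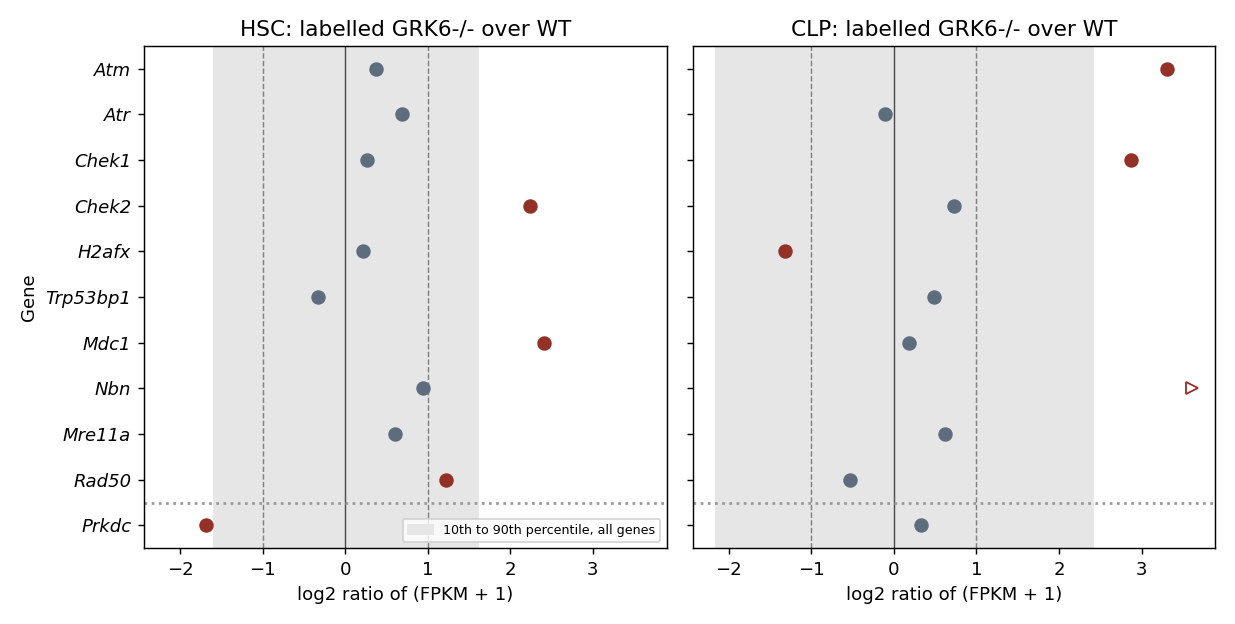
The log2 ratio of FPKM + 1, labelled GRK6-/- over WT, for each member and Prkdc in HSC (left) and CLP (right), with red for values past the dashed lines at 1 and -1 and gray shading from the 10th to the 90th percentile of all genes. Mdc1 (2.41) and Chek2 (2.24) stand out in HSC and Atm (3.31) and Chek1 (2.87) in CLP; Nbn in CLP is an open triangle because WT CLP has no row for it.

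The kinases at the head of the pathway differed in their order between libraries. Atm was 9.79 FPKM in WT HSC and 13.0 in the library labelled GRK6-/- HSC. In CLP it was 3.59 under the WT and 44.3 under the GRK6-/- label. The HSC values were 1.33-fold apart (95% counting interval 1.15 to 1.55) and the CLP values 12.4-fold (10.4 to 14.7), with 157 and 1233 estimated fragments behind the latter. The Atm log2 ratio in CLP was higher than that of 95.1% of genes. Npat, read from the other side of the same start region and named here after its values were seen, was 5.03, 3.18, 4.57 and 15.5 FPKM in the same order of libraries. It was thus also highest in the library labelled GRK6-/- CLP, 3.40-fold above WT CLP, while in HSC it was 1.58-fold lower under the GRK6-/- label where Atm was higher.

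Atr varied less. It was 1.68 FPKM in WT HSC, 3.33 in the library labelled GRK6-/- HSC, 4.96 in WT CLP and 4.54 in the library labelled GRK6-/- CLP. The HSC pair differed 1.98-fold (1.37 to 2.96), short of the threshold on the scale with the pseudocount (log2 ratio 0.69), and the CLP pair was within its counting interval of equality, 0.916-fold (0.711 to 1.18).

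Prkdc, the kinase that binds DNA ends with Ku, was 7.33 FPKM in WT HSC, 1.60 in the library labelled GRK6-/- HSC, 2.16 in WT CLP and 2.97 in the library labelled GRK6-/- CLP. In HSC it was 4.59-fold lower under the GRK6-/- label (3.53 to 5.96), where 9 of the 10 members were higher and Trp53bp1 was also lower. In CLP it was 1.38-fold higher. The 3 kinases are set side by side within each library as FPKM, a value per length, although levels fell with length in these libraries and their longest transcripts differ (12674 bases for Prkdc, 10006 for Atm and 8074 for Atr). In WT HSC Atm led, 1.34 times Prkdc, with Atr at 0.229 of Prkdc. In the library labelled GRK6-/- HSC Atm was 8.16 times Prkdc (6.39 to 10.5) and Atr 2.09 times (1.53 to 2.83). In WT CLP Atr led, 2.30 times Prkdc, and Atm was 1.66 times. In the library labelled GRK6-/- CLP Atm was 14.9 times Prkdc (12.2 to 18.3) and Atr 1.53 times (1.15 to 2.02). Prkdc was the lowest of the 3 in every library but WT HSC.

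The effector kinases differed in opposite populations. Chek2, the target of ATM, was 14.1 FPKM in WT HSC, 70.7 in the library labelled GRK6-/- HSC, 13.0 in WT CLP and 22.1 in the library labelled GRK6-/- CLP. The HSC difference was 5.0-fold (4.0 to 6.28) and the CLP difference 1.70-fold (1.32 to 2.17). The single high library was therefore GRK6-/- HSC, where Chek2 reached the 89.3rd percentile of all genes. Chek1, the target of ATR, was 5.21 FPKM in WT HSC, 6.44 in the library labelled GRK6-/- HSC, 0.335 in WT CLP and 8.78 in the library labelled GRK6-/- CLP. Here the single outlying library was WT CLP, in which the value rests on about 5 fragments. The CLP ratio of 26.2 thus had a counting interval of 10.7 to 82.5, and the HSC ratio of 1.24 one of 0.865 to 1.80. Chek2 exceeded Chek1 in every library, by 2.72-fold, 11.0-fold, 38.7-fold and 2.52-fold in the order above.

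Among the mediators, H2afx was 157 FPKM in WT HSC and 182 in the library labelled GRK6-/- HSC. In CLP it was 242 under the WT and 96.5 under the GRK6-/- label. It was the only member past the threshold downward between genotype labels, 2.51-fold lower in CLP (2.23 to 2.82), while in HSC it was 1.16-fold higher (1.05 to 1.29). Mdc1, the scaffold that reads the phosphorylated histone, had the largest HSC ratio of the members. It was 1.56 FPKM in WT HSC, 12.6 in the library labelled GRK6-/- HSC, 5.89 in WT CLP and 6.84 in the library labelled GRK6-/- CLP. The HSC difference was 8.10-fold (5.67 to 12.0), from about 33 to 351 fragments, and the CLP difference 1.16-fold (0.922 to 1.45). WT HSC was the low library for Mdc1, below both CLP libraries as well. Trp53bp1 was 6.86, 5.26, 16.8 and 23.9 FPKM in the same order. It followed the population more than the genotype label, as both CLP libraries lay above both HSC libraries, and it was the only member for which the lower CLP value was over 2 times the higher HSC value. Under the GRK6-/- label it was 1.30-fold lower in HSC and 1.42-fold higher in CLP.

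Of the MRN complex, Mre11a, the nuclease, had the narrowest span of the 9 members with a row in every library. It was 6.63 FPKM in WT HSC, 10.6 in the library labelled GRK6-/- HSC, 5.75 in WT CLP and 9.34 in the library labelled GRK6-/- CLP. Both libraries labelled GRK6-/- lay above both WT libraries, by 1.60-fold in HSC (1.27 to 2.04) and 1.62-fold in CLP (1.28 to 2.06). Its highest value was 1.85 times its lowest, while 85.7% of the 8246 genes with a row in all libraries had a wider span, with a median of 3.91. Rad50, the ATPase, was 8.50, 21.1, 11.5 and 7.62 FPKM. It was 2.48-fold higher in HSC (2.03 to 3.05) and 1.51-fold lower in CLP (1.20 to 1.91) under the GRK6-/- label. Nbn, the subunit that recruits ATM, was 5.54 FPKM in WT HSC, 11.5 in the library labelled GRK6-/- HSC and 11.2 in the library labelled GRK6-/- CLP, and had no row in WT CLP. The HSC difference was 2.09-fold (1.43 to 3.03), just short of the threshold on the scale with the pseudocount (log2 ratio 0.94). In CLP no fold can be given, and Nbn was counted as past the threshold with its absent row taken as 0.

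The subunits of the complex did not keep a fixed ratio. Rad50 was 1.28 times Mre11a in WT HSC (0.991 to 1.69), 1.99 times in the library labelled GRK6-/- HSC, 2.0 times in WT CLP and 0.816 times in the library labelled GRK6-/- CLP (0.630 to 1.05). Nbn was 0.835, 1.09 and 1.20 times Mre11a in the libraries that listed both, WT HSC and both labelled GRK6-/-, and each of these 3 intervals held 1.

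Both CLP libraries had more such gaps than the HSC libraries, with WT CLP just ahead. Of 5068 genes with at least 5 FPKM in each of the other 3 libraries, Nbn among them, 83 had no row in WT CLP (1.64%). Including Chek1, 135 were absent or under 0.5 FPKM there (2.66%). In the library labelled GRK6-/- CLP 81 of 5065 such genes had no row (1.60%), and 125 were absent or under 0.5 FPKM (2.47%). In the HSC libraries 34 of 4916 (WT) and 30 of 4859 (labelled GRK6-/-) had no row. There 46 and 36 were absent or under 0.5 FPKM. The files do not say why a row is absent. At the estimated depth 3 fragments of Nbn would be 0.271 FPKM in WT CLP. Whether the low Chek1 and the absent Nbn belong with the other gaps of that library was not tested.

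Between populations, CLP against HSC, the same libraries enter as above, so these values are not independent of the genotype pairs. In WT, 6 of 10 members passed the threshold, beside 46.5% of 11202 genes. Higher in WT CLP were Mdc1 (3.78-fold, log2 ratio 1.43), Trp53bp1 (2.45-fold, 1.18) and Atr (2.95-fold, 1.15), 3 of 10 beside 21.8%. Lower in WT CLP were Chek1 (log2 ratio -2.22), Atm (2.73-fold lower, -1.24) and Nbn with no row, 3 of 10 beside 24.7%. In all 5 of 10 were higher in WT CLP by any amount, beside 47.3%. In the libraries labelled GRK6-/-, 4 of 10 passed the threshold, beside 45.6% of 11708 genes. Trp53bp1 (4.55-fold, 1.99) and Atm (3.40-fold, 1.69) were higher in CLP, 2 of 10 beside 22.3%. Chek2 (3.19-fold lower, -1.63) and Rad50 (2.77-fold lower, -1.36) were lower, 2 of 10 beside 23.4%, and 4 of 10 were higher by any amount, beside 47.2%. Atm thus passed the threshold in opposite directions under the WT and the GRK6-/- label, and Trp53bp1 in the same direction under both.

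An effect common to both pairs was tested with limma on log2(FPKM + 1), with genotype and population as additive terms, which leaves 1 residual degree of freedom. None of the 10 members passed an adjusted p of 0.05 for genotype, nor did any of 11230 genes (0% called, with 500 at an unadjusted p under 0.05). The members with the largest mean differences were Nbn (2.27 ± 1.03 SE on the log2 scale, unadjusted p = 0.0573), Atm (1.84 ± 1.05), Chek1 (1.57 ± 1.03) and Chek2 (1.48 ± 0.96), each with an adjusted p of 0.999 by limma. The Nbn value takes the absent row as 0. Mre11a, with like ratios in both populations, had a mean difference of 0.61 ± 0.93. For population, 1 of the 11230 genes passed (0.0089%), not a member, and 608 had an unadjusted p under 0.05. Trp53bp1 had the lowest p of the members, with 1.59 ± 0.94 SE higher in CLP and an adjusted p of 0.92 by limma. A model this small can miss a difference of this size, so these values do not show that the groups were alike. The spread behind each SE is how far the genotype ratios of HSC and CLP disagree, shared in part across genes. It is not a spread between mice or pools.

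The other genes of the pathway were taken from 6 lists with 57 names, of which 54 genes could be compared in each population (plot of log2 ratios by list). In HSC, 6 were past the threshold upward and 8 downward under the GRK6-/- label, and their median log2 ratio was -0.25, on the other side of 0 from the members. In CLP 14 were past it upward and 14 downward, with a median of 0.20. The shares of all genes past the threshold were 19.3% upward and 18.0% downward in HSC, and 26.6% and 23.4% in CLP.

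The end-joining partners of DNA-PK lay on the low side in HSC. All 6 were below 0, with a median log2 ratio of -0.71, and Xrcc4 and Dclre1c passed the threshold. Over all genes, 51.8% were above 0 in HSC and 51.5% in CLP. The 4 kinases of the list that holds Prkdc, with Mtor, Smg1 and Trrap, were also all below 0, with a median of -0.31, and Prkdc alone passed. In CLP 3 of these 4 were above 0, with a median of 0.17, and Smg1 passed upward (0.652 and 7.42 FPKM) and Mtor downward (5.20 and 0.0405). In CLP the end-joining list split, with 3 upward and 3 downward. Xrcc5, the larger Ku subunit, had no row in WT CLP and 32.5 FPKM in the library labelled GRK6-/- CLP, and Lig4, the ligase of the pathway, none and 6.72. Nhej1, which stimulates that ligase, was 10.3 FPKM in WT CLP with no row in the library labelled GRK6-/- CLP. Xrcc4, the partner of Lig4, was lower under the label in both populations, from 13.7 to 5.79 FPKM in HSC and from 7.43 to 2.24 in CLP.

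In the list on ATR activation, 1 of 10 genes compared in HSC was past the threshold upward and 2 downward, and in CLP 3 of 11 upward and 3 downward. Hus1, of the checkpoint clamp, was lower under the label in both populations, from 6.12 to 2.52 FPKM and from 4.41 to 1.39. Rad1, its clamp partner, was 5.46 and 28.8 FPKM in HSC. Rad9, the third subunit, had a row only in WT CLP (37.0 FPKM). Clspn, the mediator that presents CHK1 to ATR, was 16.9 and 4.16 FPKM in HSC and 0.180 and 28.4 in CLP, so its WT CLP value was near 0 as that of Chek1 was. Atrip had a row joined with another gene in 1 library and was left out.

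The ubiquitin arm that acts below MDC1 had 4 genes of 11 upward and 1 downward in HSC, and 2 upward and 1 downward in CLP. Brcc3, a deubiquitinase of the BRCA1-A complex, was 7.71 and 23.5 FPKM in HSC. Rnf168, the ligase that extends the mark, was 23.5 and 3.74 FPKM there, opposite to Mdc1. The 4 genes past the threshold upward in HSC, in the direction of Mdc1, were Rnf8, Paxip1, Uimc1 and Brcc3. Babam1 had no row in any library. Of the checkpoint targets and brakes, none of 9 was upward and 1 downward in HSC, and in CLP 2 of 8 upward and 1 downward with a median log2 ratio of 0.88. Cdc25c, the phosphatase that the checkpoint kinases inhibit, was lower under the label in both populations, from 101 to 18.5 FPKM and from 14.7 to 1.74.

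**Figure D4:**
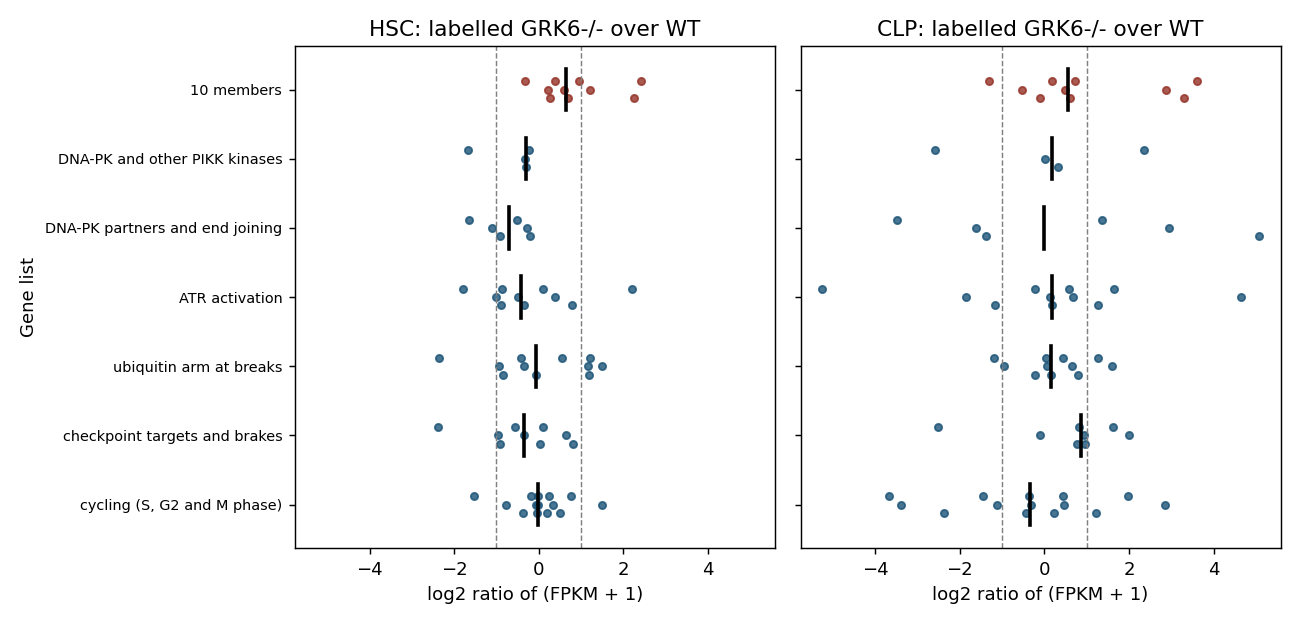
The log2 ratio of FPKM + 1, labelled GRK6-/- over WT, for the 10 members (red) and the genes of 6 related lists (blue) in HSC (left) and CLP (right), 1 point per gene with a black bar at the median and dashed lines at 1 and -1. The members' median is 0.65 in HSC, where the end-joining list has its median at -0.71, and in CLP the lists spread to both sides; genes with no row in 1 of the libraries are drawn with that value at 0.

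Cell cycle genes are given beside the members because Chek1 is expressed mainly in cycling cells. In HSC, 1 of 14 S, G2 and M phase genes was upward (Ccnb1, 20.2 and 58.6 FPKM) and 1 downward (Top2a, 166 and 57.1), with a median of -0.02. In CLP 3 were upward (Mcm7, Pcna and Rrm2) and 5 downward (Top2a, Ccnb1, Ccnb2, Cdk1 and Mcm3), with a median of -0.35 and Top2a at 478 and 36.5 FPKM. The part of the cycle in the members' differences was not tested.

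Markers of other cells differed between the same libraries. The summed FPKM of 9 erythroid markers was 38.1 in WT HSC and 746 in the library labelled GRK6-/- HSC (Car1 alone 612), and 19.8 in WT CLP and 17533 in the library labelled GRK6-/- CLP (Hba-a2 alone 17219), with rows for 5 or 6 of the 9 and none for Hba-a1, Hbb-b1 and Hbb-b2. That of 7 B lineage markers was 41.9 and 35.5 in HSC, with rows for 1 and 3, and 161 and 891 in CLP, with rows for 6 in both and Pax5 absent throughout. Of those listed in CLP, only Vpreb2 was lower under the GRK6-/- label (70.6 and 4.75). Of 4 megakaryocyte and platelet markers the sum was 149 in WT HSC and 13.1 in the library labelled GRK6-/- HSC, and 13.5 and 115 in CLP, with 3 of 4 listed in each. The 8 myeloid markers summed to 17839 and 11341 in HSC and 9385 and 7742 in CLP, with rows for 6 to 8. The lymphoid list of 6 summed to 168 and 118 in HSC and 1318 and 941 in CLP, with rows for 2, 4, 6 and 5. Its CLP sums were mostly Dntt (931 and 562), and its genes did not move together. In CLP Dntt, Il7r, Rag1 and Rag2 were lower under the GRK6-/- label, and Flt3 and Ebf1 were higher. The sort list of 6 stem and progenitor markers summed to 299, 440, 407 and 618 in the order used above, with 5 listed in each. In pools of so few cells, a different share of cells of one type and a different level per cell cannot be told apart. The part of these cells in the Atm, Chek2, Mdc1 and H2afx values was not tested.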

How the data were processed

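Sequenced cDNA of 4 libraries, 1 per population and genotype label, was analysed. Reads had been mapped on mm9 by the authors (TopHat 1.4.0 per the labels), who deposited 1 FPKM value per gene and library, without counts. Repeated rows of a symbol were added up, an absent row counted as 0, and 325 names in 241 joint rows were left out. Log2 ratios used FPKM + 1. Depth was estimated from the spacing of low FPKM values of genes that have only 1 annotated transcript, 1500 bp or longer, for which 82.8% to 91.4% of low values lay within 10% of 1, 2 or 3 fragments. Fragments per value were computed from the longest GENCODE M1 transcript. Their 95% intervals (exact Poisson, and Clopper-Pearson for ratios) cover counting error only, since PCR copies are not independent molecules and cells and mice vary. An additive model was fitted with limma 3.58.1 (R 4.3.3) on genes that reached 1 FPKM in any library, with Benjamini-Hochberg adjustment. Other steps used Python 3.11.15, pandas 2.3.3, scipy 1.17.1 and matplotlib 3.10.9, and were tested on simulated data.

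The members and lists were chosen with earlier results of these data known. Named were all members, Prkdc, Grk6, related genes past the threshold in the same direction in both populations, and the 3 largest rises and falls per population among related genes with at least 5 FPKM in 1 of the 2 libraries. Other genes named (Npat, markers, and those listed as past the threshold in a list) were chosen after their values were seen. Promoters are from RefSeq (GRCm38.p6), and coordinates of genes from mm9. Alternatives were the pseudocount (0.1 or 5), rescaling to equal medians or upper quartiles, a log2 ratio of 2, a filter at 1 FPKM, the treatment of repeated and joint rows, the limma settings and the transcript used for fragments.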

Additional observations from a re-analysis of the deposited data

Results flagged for a closer look

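For 4 members and Prkdc the log2 ratio of the library labelled GRK6-/- over WT had opposite signs in HSC and CLP, as it did in 50.0% of the 10398 genes compared in both. The CLP value minus the HSC value was -1.75 for Rad50 (1.22 in HSC and -0.53 in CLP), -1.53 for H2afx (0.21 and -1.32), 0.81 for Trp53bp1 (-0.33 and 0.48) and -0.80 for Atr (0.69 and -0.10). For Prkdc it was 2.01 (-1.68 and 0.33). With 1 library per group, none of these differences was tested.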

How the results depend on the processing

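No sign of the 42 log2 ratios examined turned under any of 6 alternatives, but most of these could not turn one. A pseudocount never changes a sign, and the treatment of repeated and joint rows moved none of these ratios. The 6 members that were higher in both libraries labelled GRK6-/-, and the 2 that were higher in both CLP libraries, kept those counts with equal upper quartiles, an alternative chosen after seeing the data. Rescaling moved no log2 ratio by more than 0.02 on the log2 scale. For CLP against HSC in WT, a pseudocount of 5 left 1 member past the threshold (0 higher, 1 lower) in place of 6. The share of all genes was 28.3%. The member left was Nbn, whose absent row in WT CLP was taken as 0. For the genotype labels in HSC, Rad50 lost its place at a pseudocount of 5 (log2 ratio 0.95). There 2 members passed the threshold, beside 19.4% of genes. Nbn gained a place at 0.1 (1.05, 4 members beside 49.8%). Prkdc, not a member, also fell short of the threshold at 5 (-0.90), and was -2.13 at 0.1. At a log2 ratio of 2 the members past it for CLP against HSC in WT numbered 2 (0 higher), beside 20.5% of all genes. For CLP against HSC in the libraries labelled GRK6-/- they numbered 0 (0 higher, 0 lower) in place of 4, beside 19.1%. Between the genotype labels in CLP, no member was lower under the GRK6-/- label at the same limit, beside 11.3% of genes. Higher there were 3 members, beside 13.5%. The limma population effect called 0 genes with a pseudocount of 0.1 and 0 without a filter. With an intensity trend limma called 57 genes for genotype and 80 for population, none of them a member. Of the ratios with a row in both libraries, which leaves out Nbn in CLP, Chek1 in CLP moved most with the pseudocount, with 4.35 at 0.1 and 1.37 at 5. With the shortest coding transcript fewer fragments stand behind most members, between 2 and 20 for Mdc1 and between 0 (WT CLP) and 8 for Chek1, and the counting intervals given are then too narrow. The additive limma model already compares genotypes within each population. No library could be left out of a pair, because each group had 1.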
